A study of Mus musculus with 2 samples.

Results

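The endothelial cells of the mouse uterus described here line the vessels of an organ at gestational day 3.5, just before an embryo attaches. They were chosen from single-cell RNA counts by a rule on marker genes. A barcode needed 500 or more genes, with mitochondrial genes taking no more than 15% of its UMIs (unique molecular identifiers, 1 per captured transcript). It also had to hold at least 3 of the 8 genes Pecam1, Cdh5, Emcn, Flt1, Plvap, Tie1, Selp and Adgrl4, at a summed level of at least 10 per 10000 UMIs. The summed levels of Epcam, Krt8, Krt18 and Cldn7 (epithelium) and of Dcn, Col1a2 and Col3a1 (stroma) each had to be under 10 per 10000. In all, 96 of the 7413 kept barcodes met the rule.

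The study compared 2 groups of female mice. Control uteri came from mice with both Mig-6 alleles floxed and no Cre (Mig-6f/f). The other uteri had the same floxed alleles and 1 Pgr allele that carries Cre (Pgrcre/+Mig-6f/f), so that Cre is made where the progesterone receptor gene Pgr is active. Mig-6 is the protein of Errfi1, a feedback inhibitor of the EGF receptor. Tissue was digested with trypsin, a dead-cell removal kit was used against blood cells, and cells were run on the 10x Genomics droplet platform. Each group is 1 library, and the labels do not say how many mice went into it. No test between the groups was therefore possible, and every interval given here is an exact 95% interval that covers counting error only.

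Endothelial cells form the inner wall of every vessel and set what passes between blood and tissue. They hold P-selectin in stores and bring it to the surface when activated, and they then make E-selectin and more ICAM-1 and VCAM-1. Leukocytes roll and then stop on these proteins, and venules are the vessels where this mostly happens. In the uterus, the vessels respond to ovarian steroids, and they become leakier at the sites where embryos attach.

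The endothelial cells made up 56 of 4462 kept barcodes in the control, or 1.26% (0.949 to 1.63). In the library labelled knockout they were 40 of 2951, or 1.36% (0.970 to 1.84). The intervals of the shares overlapped. A share of barcodes cannot tell fewer cells of a type from more cells of the other types, and stroma and epithelium differed in number between the libraries (3239 and 735 barcodes in the control, 1040 and 1454 in the other). The 8-gene sum ran from 28.2 to 156 per 10000 UMIs in the control members, with a median of 69.5, and from 15.6 to 175 in the other library, with a median of 84.0. Just outside the rule, the highest sum of a barcode with 3 or more of the genes was 8.98 in the control and 8.20 in the library labelled knockout. A further 5 control barcodes reached the endothelial sum and were left out by an epithelial or stromal sum of 15 to 55.2, and 0 were left out so in the other library. Of the barcodes that reached the sum on fewer than 3 genes, 3 in the control and 15 in the library labelled knockout, 1 and 11 carried at least 3 immune genes.

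**Figure D1:**
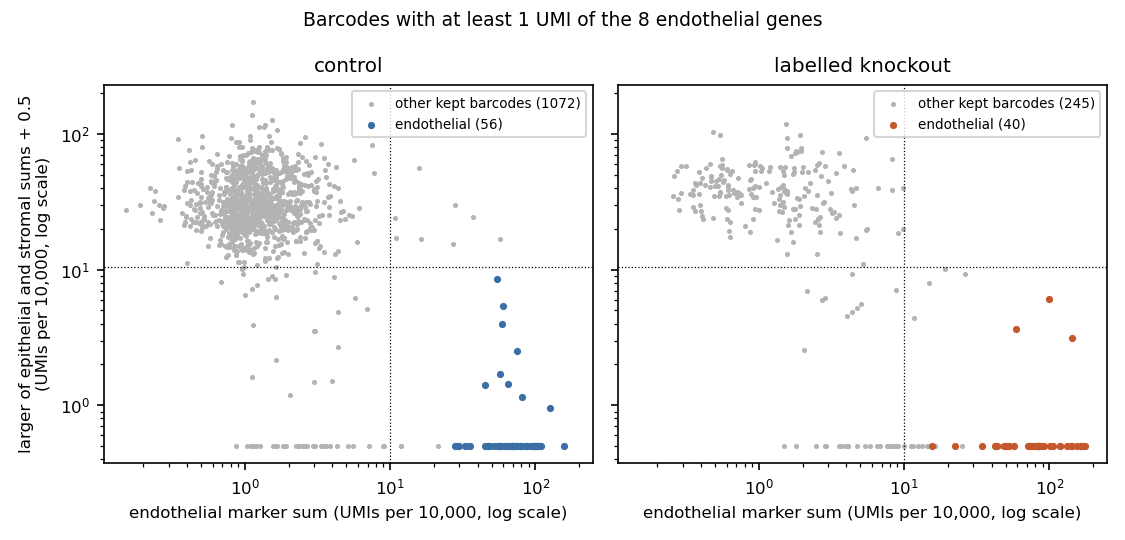
Each point is a kept barcode with at least 1 UMI of the 8 endothelial genes, plotted by the sum of those genes and by the larger of its epithelial and stromal sums, both per 10000 UMIs on log scales, with 0.5 added on the vertical axis. The 56 control and 40 other endothelial cells (coloured) lie to the lower right of the dotted limits at 10, and most of them have no epithelial or stromal UMI.

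Depth differed between the libraries. The 56 control cells held 471936 UMIs in all, with a median of 5977.5 UMIs and 2335 genes per cell. The 40 cells of the library labelled knockout held 119660 UMIs, with medians of 2228 UMIs and 1145.5 genes. The same gap of median depth, 2.68-fold in endothelium, was 1.22-fold in epithelium, 2.47-fold in stroma, 2.75-fold in mural cells and 3.09-fold in immune cells. Endothelial Malat1, a nuclear RNA, was at 7950.2 and 11683 CPM (UMIs of a gene per 1000000 UMIs of the class), the control given first here and in later pairs of library values, and ribosomal protein genes took 18.8% and 14.98% of UMIs. The libraries shared 3 barcodes, none of them endothelial. Errfi1, the targeted gene, was not lower in the library labelled knockout in endothelium (51 and 21 UMIs, 108 and 175 CPM, ratio 1.62 (0.928 to 2.75)). In epithelium it was at 573 and 512 CPM, and stroma had 192 and 732 CPM, so the label is used here as a name only. These are counts per gene, and whether the floxed part of Errfi1 was removed was not tested. Pgr, which drives the Cre, had 1 endothelial UMI in the control and 0 in the other library.

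Marker genes matched the label of endothelium. The genes that define blood cells, Ptprc, Coro1a, Laptm5, Cd52 and Tyrobp, had 0 UMIs in all 96 cells, as did the hemoglobin genes, the pericyte gene Rgs5 and the stromal genes Pdgfra and Lum. Over whole lists, 11 stromal genes had 16 and 1 UMIs, 9 pericyte genes 3 and 0, and 6 immune genes 1 and 0. The 3 stromal genes of the rule had 17 and 1 UMIs. The epithelial list of 11 genes summed to 38.1 and 159 CPM, on 18 and 19 UMIs. The 7 smooth muscle genes summed to 835 and 25.1 CPM. Of the 56 control cells, 2 held a mural marker sum of at least 10 per 10000 (Myh11, Actg2 and Des), and the same 2 were the members with doublet scores high enough to be removed in an alternative. What follows was also computed without them.

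Identity genes that the rule did not use separated these cells from the 4 other classes (epithelium, stroma, mural and immune cells) in both libraries. Of 29 further pan-endothelial genes, 23 reached 100 CPM, and 17 of the 23 were at least 10-fold above each other class in both libraries. Over all genes at that level the share was 4.13%, 62 of 1503. These are genes of the cells that were chosen, so the counts describe the class and test nothing. The genes furthest above the other classes, level by the lower of the libraries' ratios, were Gpihbp1 and Tmem252. Gpihbp1, the protein that holds lipoprotein lipase on capillaries, was at 263 and 359 CPM. No other class exceeded 0.0332 CPM of it in the control, and all 4 were at 0 in the other library. Tmem252 was at 396 and 359 CPM. Cyyr1 followed at 629 and 911 CPM and Myct1 at 415 and 376 CPM. Kdr, the main VEGF receptor, was at 417 and 593 CPM, the transcription factor Erg at 403 and 376 CPM, and Robo4, a guidance receptor of vessels, at 142 and 201 CPM. Aplnr, the apelin receptor, was at 150.4 and 125 CPM. Between genes these values are not per length, so they rank no gene against another.

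**Figure D2:**
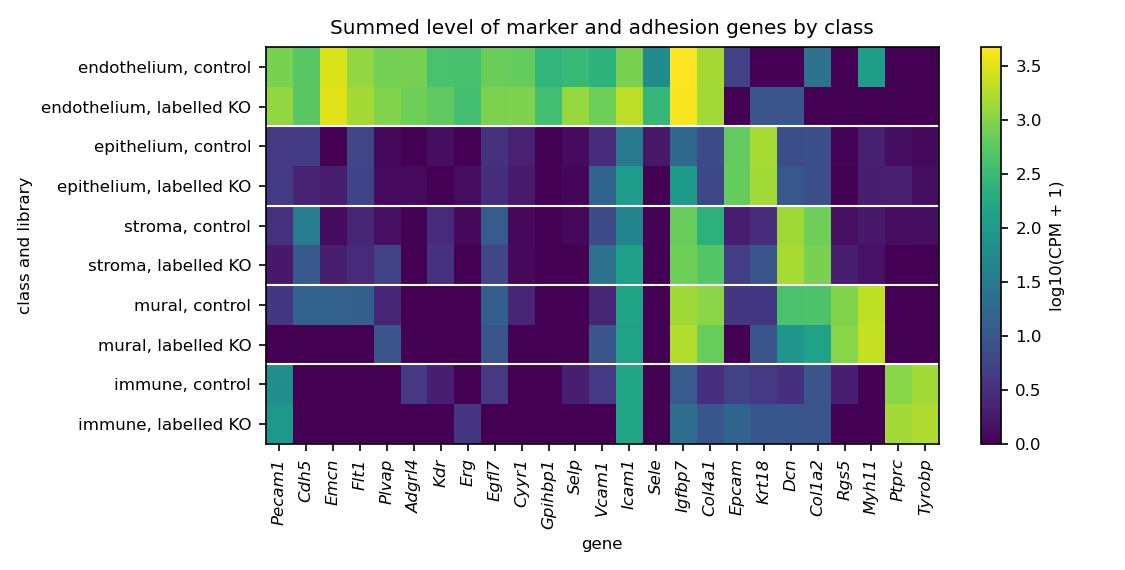
Colour gives log10(CPM + 1) of the UMIs summed over the cells of each class and library, for marker and adhesion genes. The endothelial rows are bright for Pecam1 to Gpihbp1, and Selp and Sele are near 0 in every other class, while the blood cell genes Ptprc and Tyrobp are at 0 in endothelium.

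Vessel type could be described only in part. Of 12 lymphatic genes, Lyve1, Pdpn, Mmrn1, Ccl21a and Reln were at 0 in both libraries, and Prox1, the factor that defines lymphatic fate, had 5 and 1 UMIs. The whole list had 36 UMIs in 22 control cells and 8 UMIs in 8 cells of the other library. Cldn5, a tight junction protein, was held by few cells, with 21 UMIs in 6 control cells and 17 UMIs in 3 cells of the other library. Venous genes were broader. Nr2f2, which sets venous identity, had UMIs in 30 of 56 and 8 of 40 cells, and Vwf, the clotting factor carrier, in 32 and 14 cells. Genes of secreted proteins with many UMIs were Igfbp7, at 4712 and 4296 CPM, and Sparc, at 2774 and 3393 CPM.

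The comparison of the libraries asks what differs in endothelium where Mig-6 was to be removed from Pgr-expressing cells. It was read as the ratio of summed CPM, among the 3479 genes with at least 30 endothelial UMIs over both libraries. A ratio of at least 2 was used to call a gene. By that rule 155 genes, 4.46%, were higher in the library labelled knockout and 246, 7.07%, were lower. The median log2 ratio over all 3479 genes was -0.01. Without the 2 mural-marked control cells, 156 of 3386 genes were higher and 216 lower. The balance depended on depth and scaling. With cells thinned to 2000 UMIs 52 genes were higher and 49 lower, at 1000 UMIs 32 and 15, and among genes with at least 100 UMIs 32 and 16. Scaled by the median of gene ratios, 108 were higher and 332 lower. That scaling lowers every log2 ratio by 0.13, a factor of 1.10, so genes with ratios between 1 and 1.10 have no settled side.

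The leukocyte adhesion list has 15 genes, 14 of them in the feature table and 9 measured. In the library labelled knockout 4 of the 9 were at least 2-fold higher, 0 were 2-fold lower, and the median log2 ratio was 0.98. Summed over the list, the level was 2460.1 and 4496 CPM, 1.83-fold higher (1.65 to 2.03). The list median lay between 0.85 and 1.18 in the alternatives tried.

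Selp, which encodes P-selectin, is one of the 8 genes of the rule and is on no list. It had 146 UMIs in 21 of 56 control cells and 151 UMIs in 20 of 40 cells of the library labelled knockout. The level was 309 and 1262 CPM, 4.08-fold (3.23 to 5.16) higher. With Selp taken out of the rule, 56 and 39 cells remained, and in all 13 settings tried the ratio was between 3.70 and 4.57. Sele, the gene of E-selectin, had 27 and 33 UMIs in 14 and 12 cells, at 57.2 and 276 CPM, 4.82-fold (2.81 to 8.33) higher. In the 4 other classes Sele was at most 0.736 CPM in the control and at 0 in the other library.

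Icam1 encodes the ligand of the leukocyte integrin LFA-1. It had 400 UMIs in 43 control cells and 244 UMIs in 33 cells of the other library, at 848 and 2039 CPM, 2.41-fold (2.04 to 2.83) higher. Vcam1, the ligand of the integrin VLA-4, was at 233 and 735 CPM, 3.16-fold (2.36 to 4.21) higher, on 110 and 88 UMIs. Jam2, a junctional adhesion molecule, was at 117 and 267 CPM, 2.29-fold (1.44 to 3.61) higher. Podxl, a sialomucin of the vessel surface, had a ratio of 1.97 (1.32 to 2.903). Others of the list did not reach 2-fold: Icam2 had a ratio of 1.14 (0.643 to 1.92), F11r of 0.755 (0.429 to 1.26), and Cd34, a further sialomucin, of 0.639 (0.459 to 0.872).

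In the other classes Icam1 also differed. Epithelium had 29.4 and 101 CPM and stroma 44.9 and 119 CPM, but mural cells had 139.8 and 131 CPM and immune cells 159 and 142 CPM. Vcam1 in stroma was at 6.01 and 22.99 CPM. Whether the endothelial ratios differ from those of other classes was not tested.

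**Figure D3:**
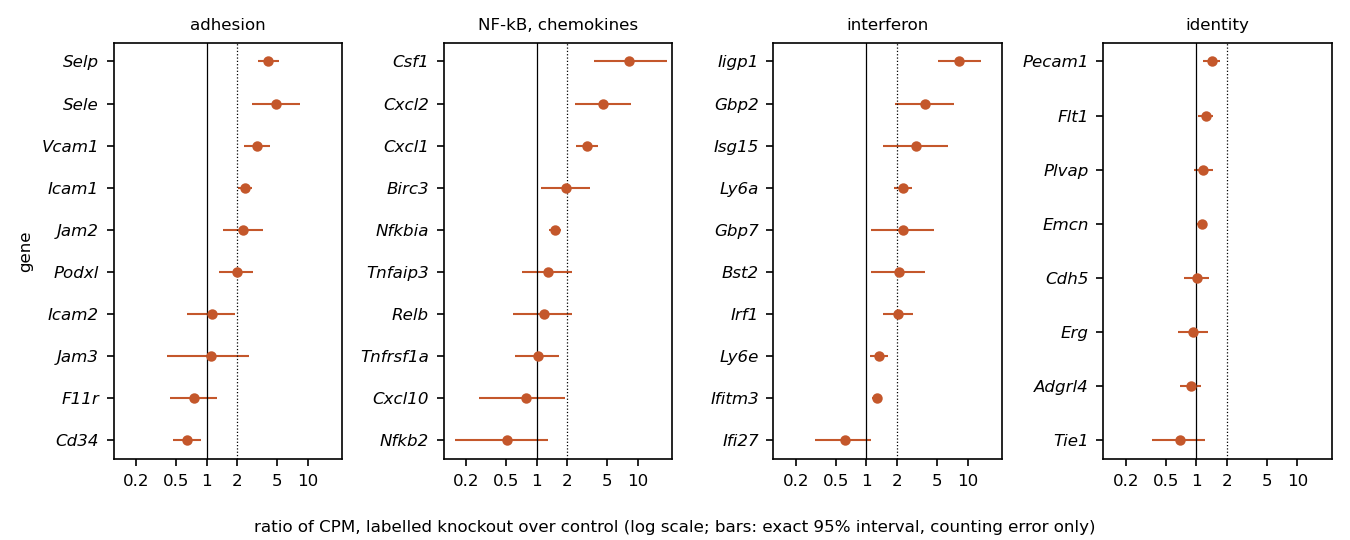
Points are ratios of summed CPM in endothelium, labelled knockout over control, on a log axis, with exact 95% intervals for counting error. Selp, Sele, Vcam1, Icam1, Csf1, Cxcl1, Cxcl2 and Iigp1 have intervals wholly above 2, while the 8 identity genes, 7 of which the rule used, have ratios of 0.690 to 1.43, with intervals above 1 for Pecam1, Flt1 and Emcn and holding 1 for the other 5.

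Selp, Sele and Icam1 are adhesion genes that were higher in the library labelled knockout, though Selp also helped to choose the cells. Cxcl1 is a chemokine gene that was also higher. The start regions of these 4 genes are given. Each is the RefSeq window from 250 bases before to 50 bases after the transcription start, on GRCm38.p6. The deposited counts used mm39, so these coordinates are not those of the count files. The windows are Selp at chr1:164115014-164115313, Sele at chr1:164047984-164048283, Icam1 at chr9:21015690-21015989 and Cxcl1 at chr5:90890995-90891294, all on the + strand. Capitals mark matches, on either strand, to GGGNNNNNCC, the loose form of the site bound by NF-kB, and to TATAAA, the TATA box. The first matched 50.8% and the second 13.6% of all 32851 promoter windows of 300 bases, and the matches here do not overlap between the motifs.
Selp: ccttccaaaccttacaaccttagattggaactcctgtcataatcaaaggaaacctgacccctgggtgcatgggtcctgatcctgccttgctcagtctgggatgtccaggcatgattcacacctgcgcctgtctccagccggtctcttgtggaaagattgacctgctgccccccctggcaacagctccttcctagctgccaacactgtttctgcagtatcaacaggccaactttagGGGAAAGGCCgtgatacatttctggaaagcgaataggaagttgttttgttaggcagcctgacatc
Sele: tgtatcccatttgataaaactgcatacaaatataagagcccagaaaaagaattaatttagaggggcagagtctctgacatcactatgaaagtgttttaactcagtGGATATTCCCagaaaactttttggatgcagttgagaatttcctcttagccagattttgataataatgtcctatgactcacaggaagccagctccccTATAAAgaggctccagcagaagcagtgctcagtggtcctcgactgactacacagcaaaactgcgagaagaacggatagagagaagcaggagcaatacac
Icam1: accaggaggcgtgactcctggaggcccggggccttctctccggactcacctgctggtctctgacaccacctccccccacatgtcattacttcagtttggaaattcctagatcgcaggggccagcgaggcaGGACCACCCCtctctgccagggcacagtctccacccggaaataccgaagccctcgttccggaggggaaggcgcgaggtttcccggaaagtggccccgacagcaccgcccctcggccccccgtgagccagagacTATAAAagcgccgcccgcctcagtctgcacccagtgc
Cxcl1: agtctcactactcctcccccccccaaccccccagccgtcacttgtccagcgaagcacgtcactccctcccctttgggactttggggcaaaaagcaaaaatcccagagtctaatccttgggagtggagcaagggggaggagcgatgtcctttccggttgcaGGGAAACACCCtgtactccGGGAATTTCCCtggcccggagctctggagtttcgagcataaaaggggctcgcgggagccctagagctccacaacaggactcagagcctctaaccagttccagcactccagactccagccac
Selp, Sele and Icam1 each held 1 match to the first motif and Cxcl1 held 4, which overlap within 2 stretches. Sele and Icam1 each held 1 TATAAA. A match describes these letters and shows no binding.

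Of the NF-kB and chemokine list, 13 of 19 genes were measured. In the library labelled knockout 5 of the 13 were at least 2-fold higher, 0 were 2-fold lower, and the median log2 ratio was 0.62. Cxcl1, which draws neutrophils, was at 324 and 1019.6 CPM, 3.14-fold (2.46 to 4.02) higher, on 153 and 122 UMIs in 23 and 23 cells. Cxcl2, its close relative, was at 44.5 and 201 CPM, 4.51-fold (2.404 to 8.51) higher. Csf1, a growth factor of macrophages, was at 21.2 and 175 CPM, 8.28-fold (3.73 to 19.7) higher, on only 10 and 21 UMIs. Icam1 and Sele are the other 2. Nfkbia, the inhibitor that NF-kB induces, was at 1608 and 2474 CPM, a ratio of 1.54 (1.34 to 1.76). Nfkb2 had a ratio of 0.506 (0.156 to 1.28), Cxcl10 of 0.789 (0.268 to 1.93) and Csf3 of 0.563 (0.144 to 1.61). Ccl2 and Ccl7 were at 0 in both libraries. Endothelium had 3655 and 7120.2 CPM of the summed list, epithelium 1055 and 2346, stroma 735 and 2458, mural cells 1359.7 and 1667, and immune cells 2103 and 2678 CPM.

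The interferon response list had 16 of 29 genes measured, of which 8 were at least 2-fold higher in the library labelled knockout and 0 lower. The list's median log2 ratio was 0.84, but 0.41 among members with at least 100 UMIs and 0.26 after cells were thinned to 1000 UMIs. Iigp1, an immunity-related GTPase, was at 57.2 and 468 CPM, 8.18-fold (5.08 to 13.5) higher, in 14 and 14 cells. One cell held 23 of its 56 UMIs in the library labelled knockout, and without the top cell of each library the log2 ratio was 2.63. Gbp2, a guanylate-binding protein, was 3.76-fold (1.93 to 7.28) higher, Isg15, a ubiquitin-like modifier, 3.11-fold (1.47 to 6.47) higher and Ly6a 2.31-fold (1.89 to 2.82) higher. Irf1, a transcription factor of the response, was at 222 and 459.6 CPM, 2.07-fold (1.46 to 2.89) higher. The member with the most UMIs, Ifitm3, was at 2939 and 3702 CPM, a ratio of 1.26 (1.13 to 1.403), and Ifi27 had a ratio of 0.6104 (0.312 to 1.101). Of 8 measured genes of MHC class I presentation, 3 were at least 2-fold higher and 0 lower. These were H2-Q4, H2-Q6 and H2-Q7, near-identical genes whose reads may be split between them. B2m, the class I light chain, was at 636 and 1095 CPM, a ratio of 1.72 (1.39 to 2.12). MHC class II genes had 1 UMI in the control and 12 in the other library, 7 of them Cd74.

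Part of the immediate early and stress genes, which tissue digestion can induce, were also higher in that library. Of 17 such genes 5 were 2-fold higher or more, 0 were 2-fold lower, and the median log2 ratio was 0.61. Egr1 was at 110.2 and 409 CPM, 3.72-fold (2.46 to 5.599) higher, in 18 and 9 cells, with 24 of the 49 UMIs of the library labelled knockout in 1 cell. As a mean over cells its log2 ratio was 0.92. Fos was 2.22-fold (1.67 to 2.93) higher, Jun 2.03-fold (1.64 to 2.51) higher, Dusp1, a phosphatase of MAP kinases, 2.49-fold (1.698 to 3.62) higher and Socs3 2.37-fold (1.52 to 3.64) higher, whereas Atf3 had a ratio of 0.879 (0.666 to 1.15) and Hspa1a of 1.12 (0.909 to 1.37). The part of these genes in the adhesion, chemokine and interferon differences was not tested.

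**Figure D4:**
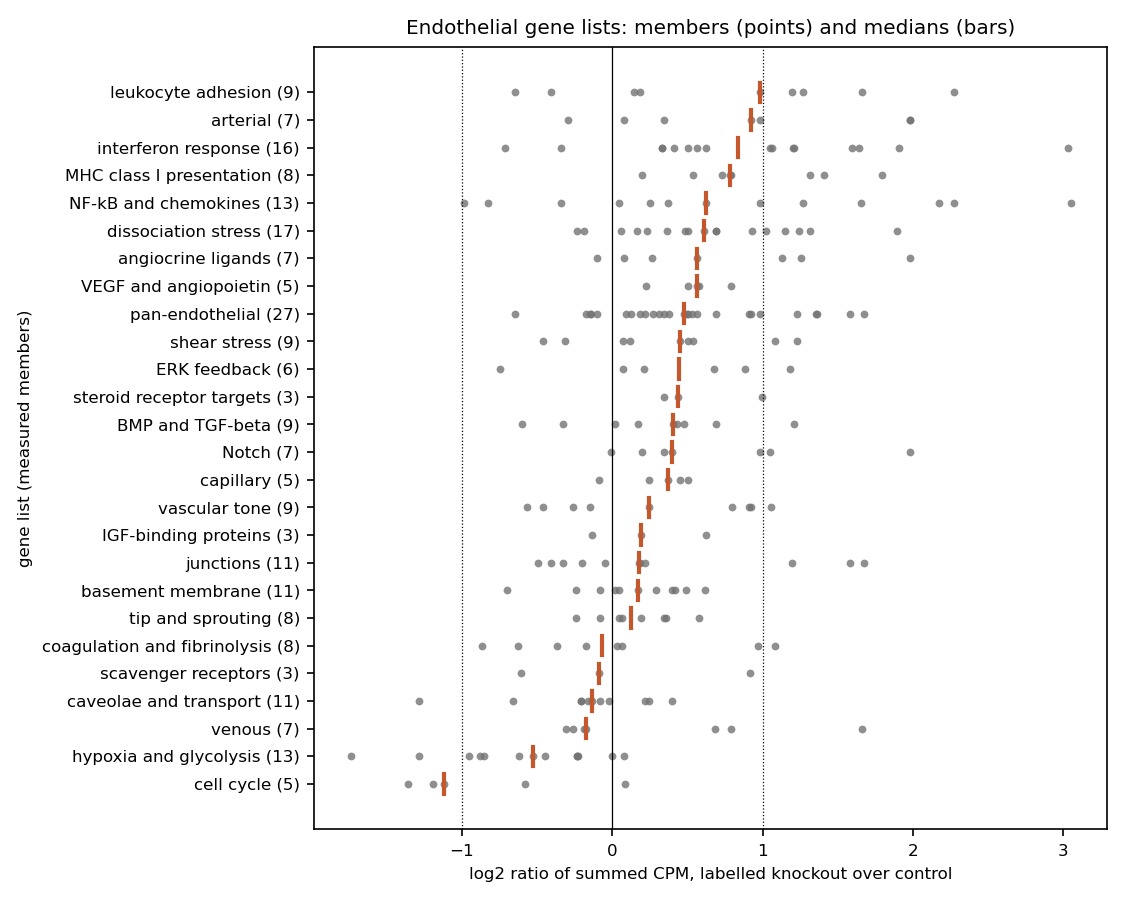
Each grey point is the log2 ratio of summed CPM, labelled knockout over control, of 1 measured gene in endothelium, in rows by gene list with the number measured, and the coloured bar is the list median. The leukocyte adhesion list has the highest median at 0.98 and the cell cycle list the lowest at -1.12, and dotted lines mark 2-fold.

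The pan-endothelial list was spread around a ratio above 1, with 27 of 29 measured, 5 at least 2-fold higher, 0 lower and a median log2 ratio of 0.48. The 5 were Cldn5 (3.19-fold (1.58 to 6.35)), Ptprb, the phosphatase of the receptor Tie2, at 184 and 552 CPM (2.99-fold (2.14 to 4.17)), Sox7 (2.57-fold (1.248 to 5.15)), Shank3 (2.55-fold (1.798 to 3.61)) and S1pr1, a receptor that tightens junctions (2.34-fold (1.49 to 3.61)). The genes of the rule are not on this list, and because they chose the cells their ratios are descriptions only. Of them, Pecam1 had a ratio of 1.43 (1.17 to 1.73), Flt1 of 1.24 (1.04 to 1.47), Emcn of 1.13 (1.01 to 1.26), Plvap of 1.17 (0.942 to 1.45) and Cdh5 of 1.01 (0.758 to 1.34).

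None of 5 measured VEGF and angiopoietin genes reached 2-fold in either direction, with ratios of 1.42 (1.07 to 1.87) for Kdr, 1.17 (0.847 to 1.58) for Nrp1, 1.73 (1.28 to 2.299) for Nrp2, 1.48 (1.03 to 2.100) for Tek and 1.49 (0.799 to 2.65) for Angpt2. None of 8 measured tip and sprouting genes reached it either, and their median of 0.13 is within the shift that scaling makes. Basement membrane genes had 0 of 11 beyond 2-fold, with Col4a1, a chain of collagen IV, at 1524 and 1437 CPM. Of 11 caveolar and transport genes 0 were higher and 1 lower, the glucose transporter Slc2a1, at a ratio of 0.411 (0.128 to 1.03). Over all measured genes 7.07% were 2-fold lower, so 1 such gene is not read as a result for the list. Cav1, the main caveolin, had a ratio of 0.868 (0.657 to 1.13).

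Members of other lists also passed 2-fold upward, as did 4.46% of all 3479 measured genes. In lists this short, 1 to 3 such genes are not read as a result for their list. In the BMP and TGF-beta list, 1 of 9 did, the receptor Tgfbr1 (2.31-fold (1.19 to 4.35)), while Smad1 had a ratio of 0.6600 (0.462 to 0.922). In coagulation, 1 of 8 did, thrombomodulin (Thbd, 2.12-fold (1.300 to 3.39)), and in vascular tone 1 of 9, endothelin (Edn1, 2.08-fold (1.27 to 3.35)). Of 6 ERK feedback genes 1 did, Spred1 (2.27-fold (1.296 to 3.88)), and Dusp6 had a ratio of 1.84 (0.902 to 3.58). Of the angiocrine ligands, 3 of 7 did, Cxcl12 (3.94-fold (2.397 to 6.49)), Hbegf, a ligand of the EGF receptor (2.39-fold (1.36 to 4.11)), and Pdgfb, which recruits pericytes (2.19-fold (1.08 to 4.27)). No gene of these 5 lists was 2-fold lower. The junction list had 3 of 11 genes at least 2-fold higher, Notch 2 of 7 and shear stress 2 of 9, each with 0 lower. Lists share members, so some of these genes are named under other lists.

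Arterial genes had a median log2 ratio of 0.92 over 7 of 13 measured, with 2 higher, the Notch ligand Jag1 (3.94-fold (1.85 to 8.42)) and Cxcl12, and 0 lower. After every cell was thinned to 1000 UMIs, 0 of 56 control cells and 6 of 40 cells of the library labelled knockout held at least 3 arterial genes. With a floor of 3 cells in place of 0, which is not an exact interval, 0 of 56 allows a share of up to 5.36%. Before thinning the counts were 28 and 12, at the greater depth of the control. In the library labelled knockout 5 cells held 59.1% of all arterial UMIs, and the median was 0.59 without the top cell for each gene. With an endothelial sum of at least 20 per 10000 required, which drops 1 cell of that library, it was 0.46 over 6 genes.

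Few groups were lower. Cell cycle genes summed to 1110.3 and 535 CPM, a ratio of 0.482 (0.366 to 0.625), with 52.9% of the control UMIs in 5 cells. Of 5 measured genes 0 were higher and 3 lower: Hmgb2 (ratio 0.3895 (0.163 to 0.805)), Stmn1 (0.4601 (0.177 to 1.01)) and Mcm3 (0.438 (0.0851 to 1.42)). Mki67 had 23 and 3 UMIs and Top2a 21 and 1. After thinning to 1000 UMIs, Hmgb2 was seen in 3 of 56 control cells and 5 of 40 cells of the other library, Stmn1 in 6 and 3, Pcna in 5 and 3, Top2a in 1 and 0 and Mki67 in 2 and 2. At equal depth Hmgb2 was thus not lower, and these counts are too few to order the libraries. Of 13 hypoxia and glycolysis genes 0 were higher and 2 lower, Pgam1 (0.2995 (0.107 to 0.681)) and Slc2a1, and 12 had ratios below 1, with a median log2 ratio of -0.53. Over all 3479 measured genes, 7.07% were 2-fold lower and 1759 had ratios below 1. Pkm, pyruvate kinase, had a ratio of 0.518 (0.312 to 0.819) and Ldha, lactate dehydrogenase, of 1.05 (0.745 to 1.47). Nuclear genes of the respiratory chain had a median log2 ratio of -0.37 in endothelium, -0.10 in epithelium, -0.11 in stroma, 0.05 in mural cells and -0.31 in immune cells.

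Beyond the lists, the genes chosen by the rule for naming were Iigp1, Mctp1, Csf1, Selp, Sele, Ltbp4, Tnfaip2, Egr1, Ptpre and Cxcl1 on the higher side. Mctp1, a calcium-binding membrane protein, was at 201 and 1170.0 CPM, 5.81-fold (4.45 to 7.62) higher, in 20 and 22 cells. Ltbp4, which binds latent TGF-beta, was 5.26-fold (2.74 to 10.3) higher, Tnfaip2, a gene induced by TNF, 4.44-fold (2.46 to 8.03) higher and Ptpre, a tyrosine phosphatase, 3.57-fold (2.46 to 5.18) higher. On the lower side were Cdkn1b, Apcdd1, Snx6, Sncaip, Hdac9, Tmsb10, Kansl1l, Uqcrfs1, Klhl4 and Creld2. Tmsb10, which binds actin monomers, was at 1068 and 509.8 CPM, with UMIs in 56 of 56 and 31 of 40 cells and a ratio of 0.477 (0.3598 to 0.624). The other 9 rested on 0 to 7 UMIs in the library labelled knockout. Cdkn1b, an inhibitor of the cell cycle, had 41 UMIs in 22 control cells and 0 in the other library, at least 3.47-fold lower with that library set to a floor of 3 UMIs, or 2.69-fold with the counting error of the control's UMIs. Apcdd1, a Wnt inhibitor, had 33 and 0 UMIs, at least 2.79-fold lower by the same floor, or 2.14-fold with that error. Hdac9 had 105 and 7 UMIs, 35 of the former in 1 cell, and after thinning to 1000 UMIs its ratio was no longer below 1 (1.05).

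Within each library Selp divided the cells, which is a split by a measured gene of the rule and gives descriptions only. Selp had a UMI in 21 of 56 control cells, 37.5% (24.9 to 51.5), and in 20 of 40 cells of the library labelled knockout, 50% (33.8 to 66.2). Thinned to 1000 UMIs per cell, with no cell left out, the shares were 11 of 56, 19.6% (10.2 to 32.4), and 18 of 40, 45.0% (29.3 to 61.5). In stroma, which should lack it, 0.154% of control cells and 0 of 1040 cells in the other library had a Selp UMI, the latter allowing up to 0.288% by the same floor of 3 cells, at median depths of 9015 and 3644 UMIs. Only 4 and 2 of the positive cells had a single Selp UMI. Positive and negative cells had like depth, with medians of 5849 and 6530 UMIs in the control and 2135.5 and 2269 in the library labelled knockout. Among positive cells the median was 6.06 Selp UMIs per 10000 in the control, with a range from 0.8205 to 58.4, and 22.3 in the other library, with a range from 1.998 to 92.6. A single UMI stands for a higher level per 10000 in a shallower cell, so these values are not at equal depth.

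The Selp-positive cells carried more of some other adhesion genes. Vcam1 was at 466 and 108 CPM in positive and negative control cells, 4.33-fold (2.85 to 6.73), and at 1497 and 107 CPM in the library labelled knockout, 14.01-fold (6.5 to 36.0). Icam1 was 2.20-fold (1.80 to 2.69) and 3.20-fold (2.40 to 4.30) higher in positive cells. Sele was not divided so in the control, where more of its UMIs lay in negative than in positive cells. The negative control cells also held more UMIs in all (306716 against 165220). In the library labelled knockout nearly all Sele UMIs lay in positive cells. Mctp1 was 6.54-fold (3.98 to 11.2) and 5.07-fold (3.31 to 8.03) higher. Tll1, a metalloprotease, had 69 UMIs in positive and 7 in negative control cells, and 31 and 0 in the other library. Neurl3 was 2.44-fold and 16.5-fold higher in positive cells, Aqp1, a water channel, 2.81-fold and 2.88-fold, and Vwf 1.99-fold (1.28 to 3.08) and 3.63-fold (1.26 to 12.8). Nr2f2 had 12 UMIs in positive and 0 in negative cells of the library labelled knockout, against 25 and 29 in the control.

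In the Selp-negative cells other genes were higher. Fos was at 121 and 404 CPM in positive and negative control cells, and at 166 and 1099 CPM in the other library. Id3, a target of BMP signals, was at 139 and 388 CPM and at 166 and 748 CPM. The arterial gene Gja4 and the junction gene Cldn5 had 0 UMIs in the positive cells of both libraries, against 12 and 17 UMIs of Gja4 and 21 and 17 UMIs of Cldn5 in negative cells. Hey1, an arterial Notch target, had 2 UMIs in positive cells of each library and 20 and 9 in negative cells. Gpihbp1 was at 96.8 and 352 CPM in positive and negative control cells but at 370 and 351 CPM in the library labelled knockout, where it had UMIs in only 8 cells and 18 of the 20 UMIs on the positive side lay in 1 cell. Over all genes, 4.38% of 2880 were at least 2-fold higher and 5.8% lower in positive cells of the control, and 9.03% and 9.45% of 709 in the other library. Of the 707 genes measured in both, 14 were higher in positive cells in both, 7 were lower in both and 0 were opposite.

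**Figure D5:**
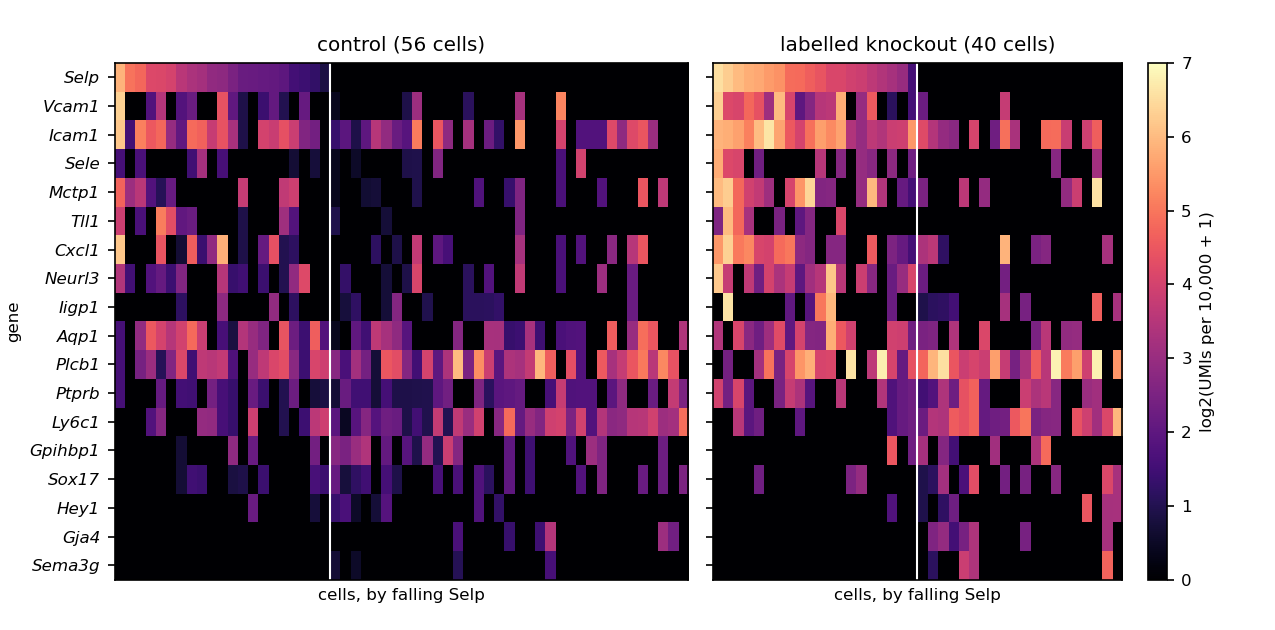
Each column is 1 endothelial cell, ordered by falling Selp within its library, and colour gives log2(UMIs per 10000 + 1). The white line ends the Selp-positive cells (21 of 56 and 20 of 40), to the left of which Vcam1, Icam1, Mctp1 and Tll1 are seen more and Gja4 and Sema3g not at all.

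The library ratios were also read on each side of this split. The sides were set without thinning, so a deeper control cell could count as positive at a lower Selp level. Of the 21 and 20 positive cells, 11 and 18 kept a Selp UMI after thinning to 1000 UMIs. The part of depth in the ratios below was not tested. Among Selp-positive cells, Sele was at 66.6 and 573 CPM, 8.60-fold higher (4.21 to 19.0), and Vcam1 was 3.21-fold higher (2.32 to 4.45). Among Selp-negative cells, Sele had a ratio of 0.585 (0.0652 to 2.49) on 16 and 2 UMIs, and Vcam1 of 0.993 (0.371 to 2.28) on 33 and 7 UMIs. Icam1 was 2.49-fold higher (2.03 to 3.05) in positive cells and 1.71-fold (1.28 to 2.28) in negative cells. Csf1 had 4 and 21 UMIs in positive cells, 16-fold higher (5.41 to 64.2), and 6 and 0 in negative cells. Mctp1 was higher on both sides, 4.66-fold (3.45 to 6.34) in positive cells and 6.02-fold (3.28 to 11.2) in negative cells. Cxcl12 was at 42.4 and 37.0 CPM in positive cells and 91.3 and 503 CPM in negative cells, and Ly6a was 0.986 (0.635 to 1.49) in positive cells and 3.43 (2.70 to 4.34) in negative cells. Whether the ratios of the positive and negative cells differ was not tested.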

How the data were processed

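Single-cell RNA of the uterus was measured in 2 libraries, 1 control and 1 labelled knockout. The authors deposited counts of UMIs per gene and barcode. Per the file headers, the matrices were written by cellranger 7.0.1. Per the submitters' processing notes, the build was mm39 and Seurat was used. Other settings are not given in the sources used here.

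Barcodes were kept and classed as given in the report, from the deposited counts of 32285 features. UMIs were summed over the endothelial cells of each library and divided by their total (CPM). Library sizes ran from 23317904 to 44871170 UMIs. Genes with at least 30 endothelial UMIs over both libraries count as measured. Ratios carry exact conditional 95% intervals, shares exact Clopper-Pearson intervals, and a library at 0 is set to a floor of 3 UMIs. With 1 library per group no test was made. The members, lists and markers were chosen with earlier results of these data known. Doublets were left in and ranked with Scrublet (scanpy 1.11.5) as an alternative.

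The named genes are the first 10 on each side, ranked by the interval bound nearest 1. They needed at least 50 CPM, 5 cells and a ratio of 2 in the higher library, and at least 0.25 of the level in each other class. The 15 genes highest over the other classes needed 100 CPM in both libraries. Mitochondrial, ribosomal, hemoglobin and unnamed genes were left out. The ratio code was checked on simulated data. Promoter windows are from RefSeq. The windows of 8 of the 10 named higher genes are in the table. Alternatives changed the filters, the rule, the depth per cell and the scaling. Python 3.11.15, numpy 2.4.6, scipy 1.17.1, pandas 2.3.3 and matplotlib 3.10.9 were used.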

Additional observations from a re-analysis of the deposited data

Results flagged for a closer look

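Among ratios resting on at least 30 UMIs in epithelium or stroma, those of 4 named genes pointed the opposite way to endothelium by at least 2-fold. The differences between the classes were not tested. Mctp1, higher in endothelium of the library labelled knockout, was 2.75-fold lower in its stroma. Tmsb10, lower in endothelium, was 3.48-fold higher in epithelium. Sncaip and Creld2, lower in endothelium, were 2.23-fold and 2.85-fold higher in stroma. For Sncaip and Creld2 the endothelial side rests on 4 and 1 UMIs in the library labelled knockout. Immune cells had 68.8 and 34.0 CPM of Mctp1, a ratio of 0.494 on 78 UMIs. Mural cells had 219 and 73.5 CPM of Cxcl1, a ratio of 0.336 on 156 UMIs. In endothelium, epithelium, stroma and immune cells Cxcl1 was higher in the library labelled knockout.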

How the results depend on the processing

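The shares of endothelial cells stayed within counting error in every alternative tried. With at least 1000 genes required, the control kept 56 endothelial cells and the library labelled knockout 27. Their shares were then 1.28% and 1.02%, so the order of the libraries turned. The counts of genes beyond 2-fold moved most with the number of UMIs required. With at least 15 UMIs, 366 genes were higher and 578 lower in the library labelled knockout, among 5491. With at least 100 UMIs, 32 were higher and 16 lower, among 1052. With cells thinned to 2000 UMIs, 52 were higher and 49 lower, among 940. With cells thinned to 1000 UMIs, 32 were higher and 15 lower, among 526. Without the cell with the most UMIs of each gene, 99 were higher and 310 lower, among 2999. Thinning and the higher limit leave fewer genes measured by construction. The alternatives with 1000 UMIs, without mural-marked members and without Selp in the rule were chosen after seeing the data. Of the named genes only Hdac9 turned its direction, to a log2 ratio of 0.0704 with cells thinned to 1000 UMIs, and the cause was not tested. Csf1, Cxcl1, Iigp1, Mctp1, Ptpre, Sele, Selp and Tnfaip2 were at least 2-fold higher in all 13 settings. Some of these ratios rest on few UMIs after thinning to 1000 UMIs. Csf1 then had 4 and 8 UMIs, Sele 6 and 18, and Iigp1 0 and 25, with the 0 set to the floor. Egr1 and Ltbp4 were at least 2-fold higher in 12 settings, with 1.89-fold as a mean over cells and 1.94-fold at 2000 UMIs as the lowest. Of the lower genes, Klhl4 and Uqcrfs1 were at least 2-fold lower in all 13. Snx6, Sncaip, Kansl1l and Tmsb10 were so in 12, with 1.90-fold, 1.43-fold, 1.43-fold and 1.59-fold at 1000 UMIs. Hdac9 was so in 11. Cdkn1b, Apcdd1 and Creld2 were so in all 11 settings that gave a value, and had none after thinning. The venous list median of -0.17 was 0.79 after thinning to 2000 UMIs, with 5 genes left. Several lists had fewer than 3 measured genes after thinning and gave no median. Depth limits the lower side, where 9 of the 10 named genes have 0 to 7 UMIs in the library labelled knockout, which holds 119660 endothelial UMIs against 471936. No paired analysis was possible because each group is 1 library, and no replicate could be left out.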
